A study of Drosophila melanogaster with 12 samples.

Results

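Small RNA reads assigned to the mitochondrial genome were followed in *Drosophila melanogaster* ovaries and testes. The members are all entries that the deposited tables class as mtDNA (fragments of mitochondrial protein-coding genes) or mtDNA_tDNA (fragments of mitochondrial tRNAs), on either strand. They are 24 of 968 entries in the ovary table (15 gene and 9 tRNA entries) and 28 of 845 in the testis table (16 and 12). The study added a Y chromosome of a Congo or an Ohio origin to each sex. In ovary the groups were X^XYcongo, X^XYohio and the X^X control, written XXYcongo, XXYohio and XX here. In testis they were X^YYcongo, X^YYohio and the X^Y control, written XYYcongo, XYYohio and XY. Each of the 6 groups had 2 biological replicates of ovaries or testes from 2-day-old flies reared at 23 °C, and all groups were read in 1 pool of 12 libraries. The labels do not spell out the caret, which in fly notation can mark attached chromosomes. They also do not say whether the groups carry the same mitochondrial haplotype or how many flies entered a library. The Ohio groups are those headed Cs in the tables. The labels do not spell this out. The reading takes Cs as Canton-S, a stock collected in Canton, Ohio, and rests on elimination, and every XXYohio and XYYohio value depends on it.

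Mitochondria carry their own circular genome, which passes through the mother. It encodes subunits of the respiratory chain and of ATP synthase, and the tRNAs and rRNAs with which mitochondria translate them. The genes are transcribed as long precursors from both strands, and the tRNAs that lie between the genes are cut out to release the mRNAs. Ovaries are rich in mitochondria, which the egg inherits, and in fly testes mitochondria fuse and elongate along the sperm tail. In bulk tissue, fewer cells of a type and less RNA per cell cannot be told apart.

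The BDGP6.54 annotation of the fly mitochondrial genome holds 13 protein-coding genes, 22 tRNAs and 2 rRNAs. All 13 protein-coding genes had an entry in both tissues. Of the 22 tRNAs, 9 had an entry in ovary and 12 in testis, 8 of them in both. The 2 rRNAs and the other 9 tRNAs were not analysed here. Every tRNA entry and 13 gene entries per tissue were listed on the Plus strand. Plus appeared to be the strand of the gene itself, because the 4 protein-coding genes annotated on the minus strand of the genome (ND1, ND4, ND4L and ND5) were listed as Plus as well. The tables list no entry for any of the looked-up markers of germline, follicle, cyst or muscle cells, so the tissue labels could not be checked.

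Non-spike reads, summed over the listed entries with entries of identical values each counted, ranged from 589490 to 2663239 per library. Fragments of the 45S rDNA unit, the nuclear rRNA precursor, made up 36.5% and 37.1% of them in XXYcongo, 60.8% and 51.4% in XXYohio, and 56.0% and 61.5% in XX. In testis that share was 59.2% and 36.6% in XYYcongo, 49.3% and 66.2% in XYYohio, and 66.6% and 38.8% in XY. Spike-in reads were 449976 and 201372 in XXYcongo, 104289 and 217402 in XXYohio, and 294323 and 272659 in XX. The testis libraries had 2299861 and 216527 in XYYcongo, 1972813 and 248355 in XYYohio, and 631570 and 742394 in XY.

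Mitochondrial gene fragments were a smaller share of the listed non-spike reads in XXYcongo ovary than in the other ovaries. They made up 0.0806% and 0.0891% of non-spike reads in XXYcongo, against 0.125% and 0.159% in XX. XXYohio had 0.166% and 0.131%. Both XXYcongo libraries lay below all 4 of the other ovary libraries, and their exact 95% intervals (0.0772% to 0.0841% and 0.0854% to 0.0929%) did not reach the lowest of these, which began at 0.118%. The difference between the mean log2 shares of XXYcongo and XX was -0.74, and it was -1.35 with 45S rDNA left out of the denominator. Mitochondrial tRNA fragments made up 0.0118% and 0.0209% in XXYcongo, 0.0116% and 0.0118% in XXYohio, and 0.00836% and 0.0154% in XX, so these groups overlapped. In testis the gene class took 0.141% and 0.120% in XYYcongo, 0.114% and 0.0713% in XYYohio, and 0.126% and 0.152% in XY. XYYohio lay below XY there without overlap. The testis tRNA class took 0.0396% and 0.0486% in XYYcongo, 0.0401% and 0.0264% in XYYohio, and 0.0265% and 0.0482% in XY, all overlapping. These intervals cover counting error only, and 2 libraries against 2 cannot reach p under 0.05 in an exact test, so the shares carry no p-value.

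Per kilobase of gene, the highest levels lay in a few short genes. In ovary, ATPase8, a small subunit of ATP synthase (complex V), had a mean of 1042 deposited value units per kb in XXYcongo, 1568 in XXYohio and 1116 in XX. tRNA Lys-CTT had 1203 in XXYcongo, 186 in XXYohio and 514 in XX, so it ranked above ATPase8 in XXYcongo and below it in the other groups. tRNA Ser-GCT had 469.5 units per kb in XXYcongo, 838 in XXYohio and 631 in XX. In testis tRNA Lys-CTT was highest in each genotype, with 1639 units per kb in XYYcongo, 1269 in XYYohio and 1554 in XY, and tRNA Ser-GCT was next, with 1392 in XYYcongo, 961 in XYYohio and 955 in XY. ATPase8 had 374 units per kb in XYYcongo, where XYYcongo replicate 1 raised the mean, 103 in XYYohio and 132 in XY. CoII, tRNA Ile-GAT and CoI lay between 126 and 221 units per kb in the 3 testis genotypes. The 2 tables were normalized separately, so units are not compared between tissues, only the order within each. ATPase8 and ATPase6 overlap by a few bases in the annotation, so their reads may be split between them.

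**Figure D1:**
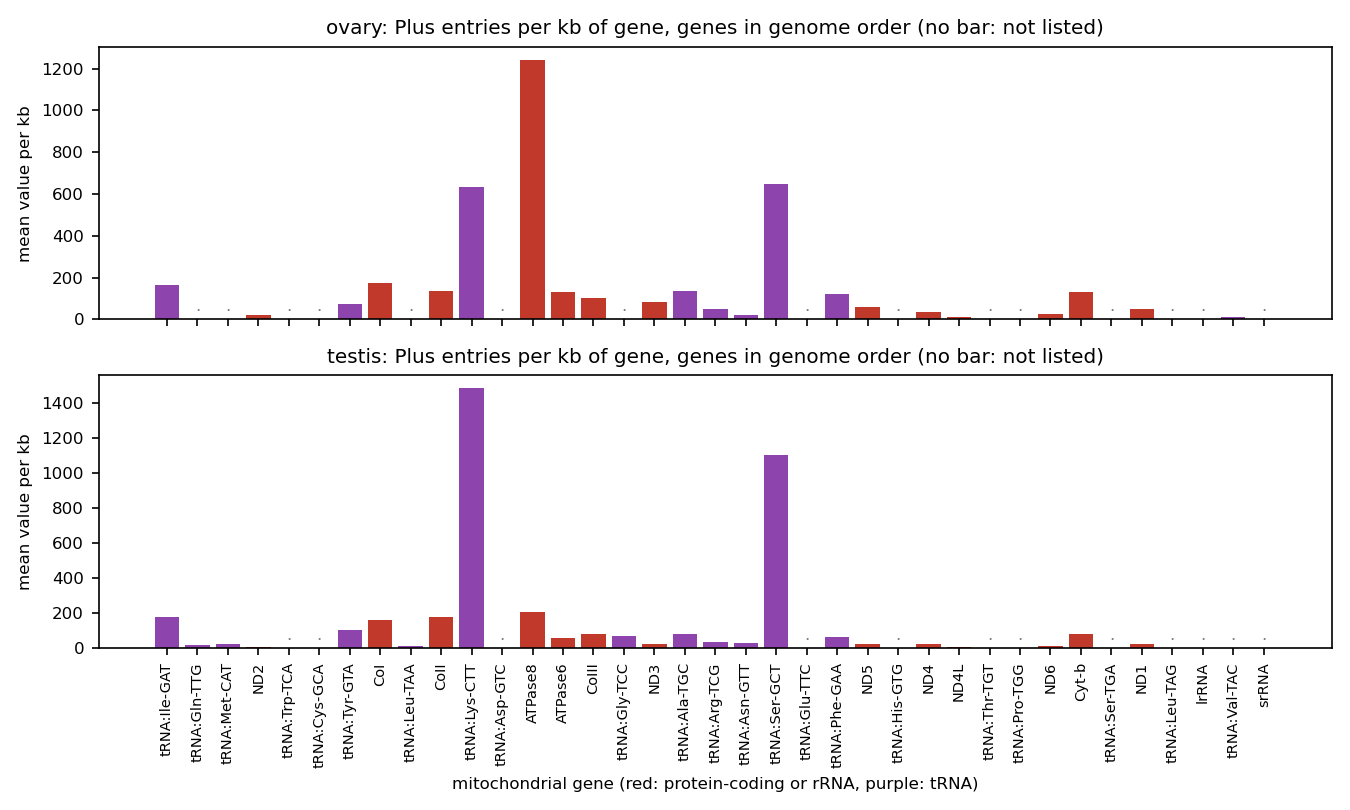
Mean deposited value per kb of gene over the 6 libraries of each tissue (vertical axis) for the Plus entries, with the mitochondrial genes along the horizontal axis in the order of the BDGP6.54 annotation. Protein-coding genes are red and tRNAs purple. Averaged over the genotypes, ATPase8 stands highest in ovary at 1242, although tRNA Lys-CTT is above it in XXYcongo alone, and tRNA Lys-CTT and tRNA Ser-GCT stand highest in testis at 1487 and 1102.

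Fragments of the opposite strand were rare among the listed entries. Minus entries were listed for 2 genes in ovary, 3 in testis and no tRNA, so unlisted opposite-strand reads are not counted here. Minus entries held 0.357% to 1.25% of the mitochondrial reads of an ovary library and 0.446% to 1.42% of those of a testis library. Minus CoI had 3.48 and 3.97 in XXYcongo, 7.46 and 3.67 in XXYohio, and 9 and 2.10 in XX, and Minus Cyt-b stayed between 1.93 and 8.08 over the 6 ovary libraries. In testis Minus CoI lay between 2 and 6.05 and Minus Cyt-b between 2 and 5.24. ND4L, a small complex I subunit, had a Minus entry in testis only, with 5.72 and 5.11 in XYYcongo, 4.11 and 0.533 in XYYohio, and 0 and 1.61 in XY. Its XYYcongo libraries lay above all others. For ND4L in testis the opposite strand was not the rarer one, with a mean of 2.85 for Minus and 1.39 for Plus. None of these Minus entries reached the mean of 5 needed for a test.

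Genotypes were compared with limma on log2(value + 1), fitted over all features of a tissue whose mean was at least 5, with Benjamini-Hochberg adjustment over all of them and a call at an adjusted p under 0.05. Of the members, 12 of 15 gene and 5 of 9 tRNA entries entered the ovary fit of 791 features, and 11 of 16 and 4 of 12 entered the testis fit of 618. Comparisons within a tissue share libraries and are given side by side for that reason.

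In XXYcongo against XX ovary, fragments of ND3 and ATPase6 fell, and those of tRNA Ile-GAT and tRNA Lys-CTT rose. These 4 were the calls among 17 members tested, and tRNA Ile-GAT passed the filter mainly through its XXYcongo values. Across all 791 features, 45.5% were called higher and 4.30% lower, together 49.8%. The log2 fold changes of all 12 gene entries were negative with a median of -0.53, and the 5 tRNA entries had a median of -0.05, whereas the median over all features was 0.74. With the libraries scaled to their spike-in totals, the median turned to 0.38 for the gene entries, 0.76 for the tRNA entries and 1.60 over all features, so the direction of the gene class depends on the scale. Spike-in reads differed between replicates, with 449976 and 201372 in XXYcongo at 2663239 and 2427476 non-spike reads, so that scale adds spread of its own. The tRNA median on the deposited scale was 0.21 without XX replicate 2. Groups did not overlap and XXYcongo was lower for 8 of the 12 gene entries, against 14.0% of all features, and higher for 0, against 59.5%. Of the 5 tRNA entries, 1 was higher (Ile-GAT) and 1 lower (Phe-GAA) without overlap.

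**Figure D2:**
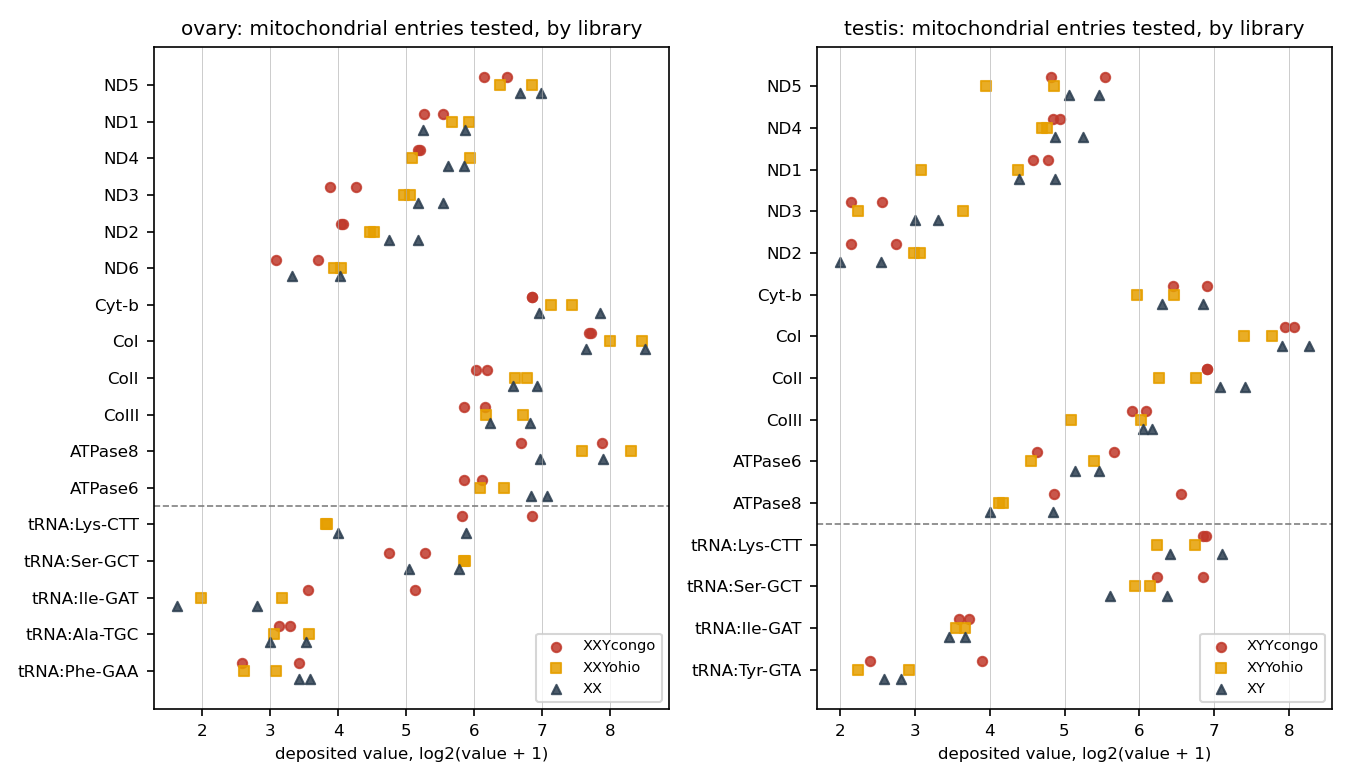
Deposited values of every tested mitochondrial entry in each library, as log2(value + 1), with ovary on the left panel and testis on the right; each symbol is 1 library, colours give the genotype, and the dashed line parts gene entries from tRNA entries. In ovary the XXYcongo libraries lie below both XX libraries for ND3, ND2 and ATPase6, and for tRNA Lys-CTT both XXYohio libraries have a value of 13.2.

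Among the tested complex I genes, which code for subunits of NADH dehydrogenase, ND3 changed most in XXYcongo against XX. ND3 had 18.2 and 13.7 in XXYcongo, 30.4 and 32.3 in XXYohio, and 35 and 45.5 in XX. The 3 genotypes did not overlap, and XXYcongo was lowest. The log2 fold change of XXYcongo over XX was -1.29 ± 0.37 (SE, n = 2 per group, limma adjusted p = 0.0116). ND3 was called in 19 of 21 alternative settings. The call was lost without XX replicate 2 (-1.10, limma adjusted p = 0.0775) and with spike-in scaling (-0.39, limma adjusted p = 0.745). ND2 had 15.9 and 15.5 in XXYcongo, 21.2 and 22.03 in XXYohio, and 35 and 25.9 in XX. These groups did not overlap either, but the difference of XXYcongo from XX (-0.90 ± 0.39) did not pass the test (limma adjusted p = 0.0721). It passed in 7 of 21 alternative settings, among them scaling without 45S rDNA (-1.70, limma adjusted p = 0.00634). ND5, the most abundant complex I entry, had 69.96 and 88.3 in XXYcongo, 115 and 82.2 in XXYohio, and 101 and 126 in XX. Its XXYcongo difference of -0.52 ± 0.30 did not pass (limma adjusted p = 0.189). ND4, ND1 and ND6 had log2 fold changes of -0.54, -0.15 and -0.28 in the same comparison and were not called. Plus ND4L was below the mean of 5 and was not tested. It had 0.387 and 0.883 in XXYcongo, 5.17 and 2.94 in XXYohio, and 2 and 5.59 in XX. These are 1 and 2 reads in XXYcongo, 9 and 4 in XXYohio, and 2 and 8 in XX.

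Cyt-b, the only complex III subunit of the mitochondrial genome, had 115 and 115 in XXYcongo, 173 and 140 in XXYohio, and 123 and 231 in XX (XXYcongo over XX -0.55 ± 0.32, limma adjusted p = 0.183). On the deposited scale the complex IV genes were not called. CoI had 206 and 210 in XXYcongo, 356 and 256 in XXYohio, and 200 and 367 in XX, so XXYcongo lay within the XX range. CoII (-0.64 ± 0.29, limma adjusted p = 0.0856) and CoIII (-0.52 ± 0.33, limma adjusted p = 0.222) were lower in both XXYcongo libraries than in both XX libraries without passing the test. Scaling without 45S rDNA, TMM, median-of-ratios scaling, edgeR and DESeq2 each called CoI and CoII lower in XXYcongo than in XX, and with 45S rDNA left out their log2 fold changes were -1.22 (limma adjusted p = 0.0358) and -1.47 (limma adjusted p = 0.00634).

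The 2 complex V genes lie next to each other in the genome. ATPase6, which forms part of the proton channel, had 68.8 and 56.9 in XXYcongo, 86.1 and 66.8 in XXYohio, and 114 and 134 in XX. Both added-Y groups lay below XX. XXYcongo over XX was -0.97 ± 0.30 (limma adjusted p = 0.0146), and without XXYcongo replicate 2 or XX replicate 2 the limma adjusted p was 0.0665 or 0.0908. With spike-in scaling it was -0.05 (limma adjusted p = 0.964). ATPase8 had 103 and 235 in XXYcongo, 316 and 192 in XXYohio, and 237 and 124 in XX, with more than a doubling between the XXYcongo replicates, and it was not called (-0.14 ± 0.42, limma adjusted p = 0.824). ATPase8 reads per ATPase6 read were 1.49 and 4.12 in XXYcongo, 3.67 and 2.87 in XXYohio, and 2.08 and 0.927 in XX.

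The tRNA entries did not move as 1 class. Lys-CTT, which reads lysine codons, had 55.7 and 115 in XXYcongo, 13.2 and 13.2 in XXYohio, and 15 and 58.04 in XX. One XX library lay close to XXYohio and the other above the lower XXYcongo library. XXYcongo over XX was 1.40 ± 0.55 (limma adjusted p = 0.0485). That call held in 9 of 21 alternative settings. It was 0.65 with TMM (limma adjusted p = 0.446), 0.57 with scaling without 45S rDNA (limma adjusted p = 0.528) and 0.35 with edgeR (adjusted p = 0.675). It was 0.88 without XXYcongo replicate 2 (limma adjusted p = 0.161) and 0.46 without XX replicate 1 (limma adjusted p = 0.483). Without XX replicate 2 it was 2.34 (limma adjusted p = 0.00423).

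tRNA Ile-GAT, the isoleucine tRNA, had 10.8 and 34.0 in XXYcongo, 8.03 and 2.94 in XXYohio, and 6 and 2.10 in XX. These are 28 and 77 reads in XXYcongo, 14 and 4 in XXYohio, and 6 and 3 in XX. Both XXYcongo libraries were above all other ovary libraries. Its mean of 10.6 passed the filter mainly through XXYcongo (22.4), beside 5.49 in XXYohio and 4.05 in XX. XXYcongo over XX was 2.13 ± 0.72 (limma adjusted p = 0.0259), and it was 1.34 without XXYcongo replicate 2 (limma adjusted p = 0.315) and 1.54 without XX replicate 2 (limma adjusted p = 0.152). It also lost the call when libraries were rescaled by TMM (1.46, limma adjusted p = 0.147) or without 45S rDNA (1.39, limma adjusted p = 0.183). tRNA Ser-GCT, a serine tRNA, had 25.9 and 38.0 in XXYcongo, 57.4 and 56.6 in XXYohio, and 32 and 53.8 in XX, and XXYcongo over XX was -0.39 ± 0.36 (limma adjusted p = 0.402). It was called lower in 5 of 21 alternative settings, among them scaling without 45S rDNA (-1.21, limma adjusted p = 0.0394). tRNA Ala-TGC, for alanine, stayed between 7 and 10.9 over the 6 libraries, with XXYcongo over XX at -0.05 ± 0.54. tRNA Phe-GAA, for phenylalanine, lay between 5.02 and 11 and was not called.

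Of the tRNA entries below the mean of 5, tyrosine tRNA Tyr-GTA had 11.98 and 10.6 in XXYcongo, 0 and 3.67 in XXYohio, and 0 and 2.10 in XX. These are 31 and 24 reads in XXYcongo, 0 and 5 in XXYohio, and 0 and 3 in XX, where a count of 0 allows up to 3 reads in each of those libraries. Arginine tRNA Arg-TCG had 3.87 and 4.85 in XXYcongo, 4.59 and 4.41 in XXYohio, and 0 and 0.699 in XX, with both XX libraries lowest. In the authors' deposited table, an analysis of variance over the 3 ovary genotypes gave a p-value of 0.0189 for Tyr-GTA and of 0.00592 for Arg-TCG. ND3 (0.0311) and ATPase6 (0.0317) were the other members below 0.05 in the authors' deposited table, so 4 of 24, against 36.7% of all 968 entries. For testis, 0 of 28 members had p under 0.05 in the authors' deposited table, against 2.72% of all 845.

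In XXYohio against XX ovary no member was called (0 of 17), against 3.29% of all features (2.53% higher and 0.759% lower). At an unadjusted p under 0.05 limma gave 1 member, ATPase6 (-0.70 ± 0.30, limma adjusted p = 0.325), and edgeR and DESeq2 gave 0 calls with 2 members each at that level. tRNA Lys-CTT was at -1.11 ± 0.55 (limma adjusted p = 0.369), with both XXYohio libraries below both XX libraries. The gene entries had a median log2 fold change of -0.09 and the tRNA entries of 0.06, beside 0.10 over all features. Groups did not overlap and XXYohio was lower for 3 of 12 gene entries (ND2, ND3 and ATPase6), against 18.3% of all features, and higher for 0, against 28.6%. Of the 5 tRNA entries, 1 was higher (Ser-GCT) and 2 lower (Lys-CTT and Phe-GAA) without overlap. The gene median turned to 0.09 without XX replicate 2, to 0.12 without XXYohio replicate 2 and to 1.17 with spike-in scaling.

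**Figure D3:**
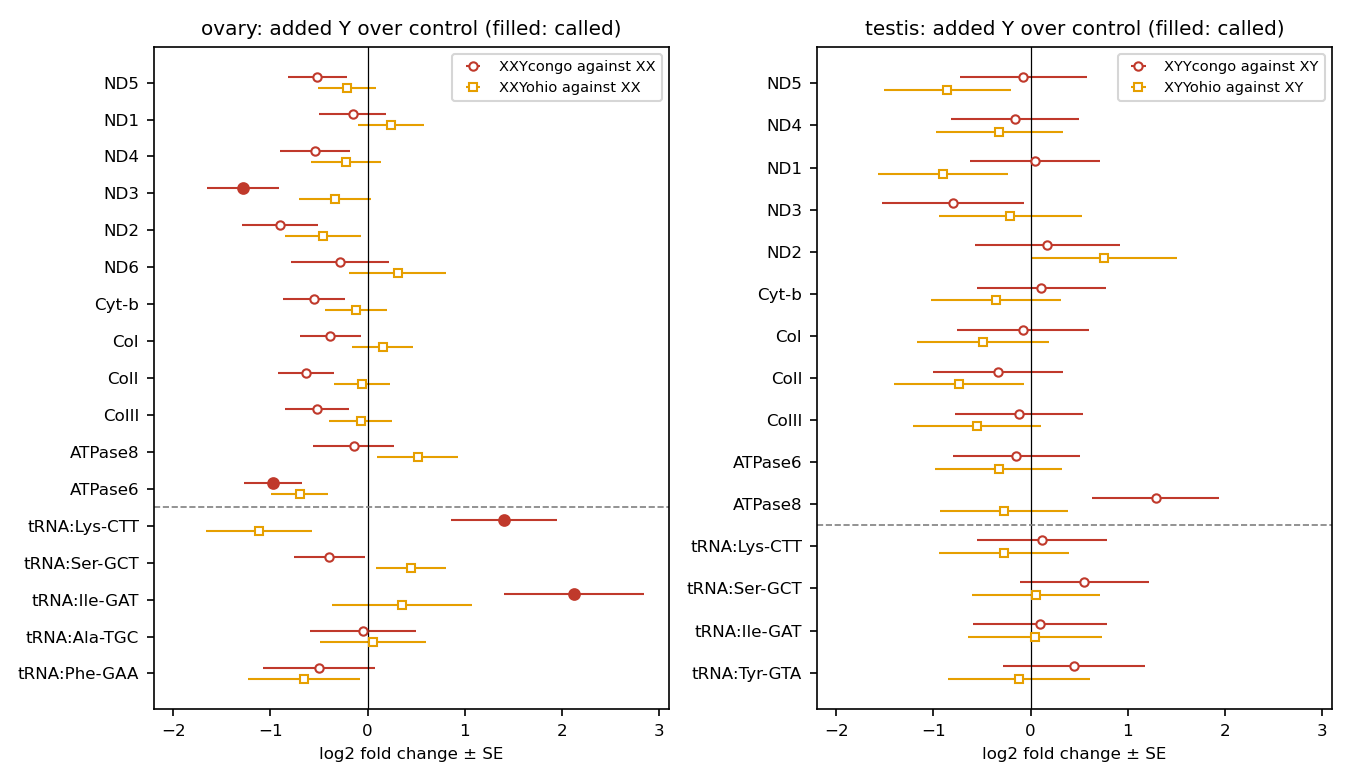
Log2 fold change with its standard error (horizontal axis) of each tested mitochondrial entry, for the Congo group (red circles) and the Ohio group (orange squares) over the control of the tissue, n = 2 libraries per group; filled symbols passed the test. The filled symbols are ND3 (-1.29), ATPase6 (-0.97), tRNA Ile-GAT (2.13) and tRNA Lys-CTT (1.40), all in XXYcongo against XX on the deposited scale. No testis symbol is filled, and tRNA Ile-GAT passed the filter mainly through its XXYcongo values.

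The 2 Y chromosomes were also compared directly. In XXYcongo against XXYohio, tRNA Lys-CTT rose by 2.51 ± 0.55 (limma adjusted p = 0.00225) and ND3 fell by 0.95 ± 0.37 on the log2 scale (limma adjusted p = 0.0498). These 2 of 17 members stand beside 44.9% of all features called higher and 4.17% lower, together 49.1%. tRNA Lys-CTT was called with any 1 library left out (2.00 to 3.03) and in 17 of 21 alternative settings in all. It lost the call with TMM (1.84, limma adjusted p = 0.0561), median-of-ratios scaling (1.78, limma adjusted p = 0.0706), scaling without 45S rDNA (1.70, limma adjusted p = 0.0851) and spike-in scaling (2.19, limma adjusted p = 0.252). ND3 was called in 13 of 21. ND3 lost its call when any 1 of 4 libraries was left out, with limma adjusted p values of 0.166 without XXYohio replicate 1, 0.181 without XXYohio replicate 2, 0.190 without XXYcongo replicate 2 and 0.0508 without XX replicate 2. tRNA Ile-GAT (1.77 ± 0.72, limma adjusted p = 0.0586) and tRNA Ser-GCT (-0.84 ± 0.36, limma adjusted p = 0.0727) did not pass. Neither overlapped between the groups, and they passed in 8 of 20 and 9 of 21 alternative settings. All 12 gene entries had negative log2 fold changes with a median of -0.44, the tRNA entries had a median of 0.16, and all features 0.83. Groups did not overlap and XXYcongo was lower for 8 of 12 gene entries, against 17.3% of all features, and higher for 0, against 56.6%. Of the 5 tRNA entries, 2 were higher (Lys-CTT and Ile-GAT) and 1 lower (Ser-GCT) without overlap. The tRNA median turned to -0.44 with TMM.

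Ratios within a library do not depend on how libraries were scaled, and they set the 2 main tRNAs apart. They were chosen after the values were seen and are given with no test. Lys-CTT reads per Ser-GCT read were 2.15 and 3.03 in XXYcongo, 0.230 and 0.234 in XXYohio, and 0.469 and 1.08 in XX. The 3 ovary genotypes did not overlap. In testis the ratio was 1.54 and 1.03 in XYYcongo, 1.52 and 1.22 in XYYohio, and 1.75 and 1.67 in XY, with both XY libraries highest. Lys-CTT and Ser-GCT together made up 62.7% to 80.8% of mitochondrial tRNA reads in an ovary library and 77.8% to 85.9% in a testis library.

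Mitochondrial tRNA reads made up 12.8% and 19.0% of the mitochondrial reads in XXYcongo, 6.56% and 8.24% in XXYohio, and 6.26% and 8.84% in XX. Both XXYcongo libraries lay above the other 4 ovary libraries, and the lower one had an exact 95% interval of 11.5% to 14.2%. In testis the share was 21.96% and 28.8% in XYYcongo, 25.99% and 27.0% in XYYohio, and 17.4% and 24.1% in XY. XYYohio lay above XY there and XYYcongo overlapped it.

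**Figure D4:**
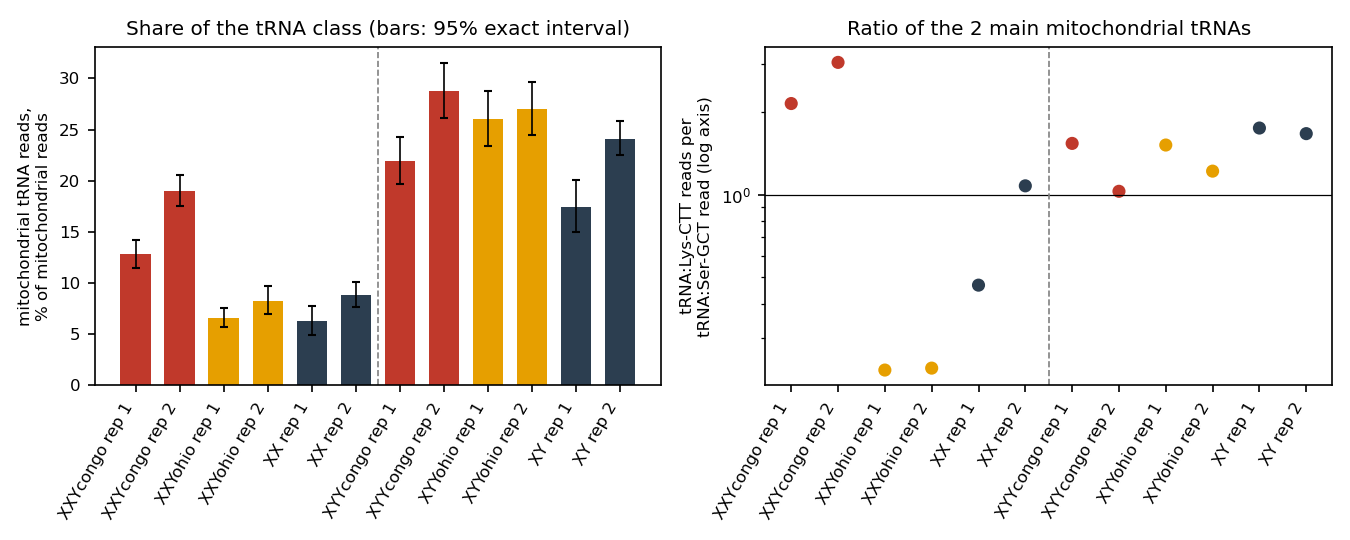
Left, mitochondrial tRNA reads as a percentage of all mitochondrial reads in each library, bars with exact 95% intervals; right, tRNA Lys-CTT reads per tRNA Ser-GCT read on a log axis, 1 point per library. Colours give the genotype, and the dashed line parts ovary from testis. The XXYcongo libraries are the highest in ovary on both plots (12.8% and 19.0%, and ratios of 2.15 and 3.03).

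The make-up of the gene reads by respiratory complex is given per library, with no test between the tissues. Complex IV genes held 33.5% to 42.5% of the mitochondrial gene reads of an ovary library and 52.7% to 68.4% of those of a testis library. Complex V genes held 18.1% to 31.2% in ovary and 7.53% to 17.4% in testis, and complex I genes 20.9% to 23.8% and 13.3% to 16.2%. For these 3 complexes the ovary and testis ranges did not overlap. Complex III, which is Cyt-b alone, overlapped between tissues, at 11.5% to 16.5% in ovary and 10.4% to 15.7% in testis.

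No mitochondrial entry was called in testis. In XYYohio against XY, 0 of 15 members were called, against 0.647% of all 618 features, and in XYYcongo against XY 0 of 15, against 1.62% (1.13% higher and 0.485% lower). In XYYcongo against XYYohio it was 0 of 15, against 0% of all features. At an unadjusted p under 0.05 limma gave 0, 0 and 1 members in these comparisons, edgeR gave 0 calls and 0, 0 and 0 such members, and DESeq2 gave 0 calls and 1, 0 and 1. The standard errors of the members were 0.65 to 0.75 on the log2 scale in testis, against 0.29 to 0.72 in ovary. With infinite prior degrees of freedom, each testis value came from the trend over all features and not from the member's own replicates. With TMM scaling, CoI and CoII in XYYohio against XY had standard errors of 0.26 and 0.28, beside 0.68 and 0.67 as deposited.

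XYYohio was lower than XY without overlap for 6 of 11 gene entries (CoI, CoII, CoIII, ND1, ND4 and ND5), against 11.2% of all features, and higher for 1 (ND2), against 13.4%. ND2 passed the filter only through its XYYohio values, with a mean of 7.16 beside 4.56 in XYYcongo and 3.92 in XY. CoI had 245 and 268 in XYYcongo, 219 and 168 in XYYohio, and 239 and 306 in XY (XYYohio over XY -0.49 ± 0.68, limma adjusted p = 0.998). CoII, a core subunit of complex IV, had 119 and 119 in XYYcongo, 107 and 75.7 in XYYohio, and 134 and 169 in XY (XYYohio over XY -0.74 ± 0.67, limma adjusted p = 0.998). The 3 genotypes did not overlap for CoII, with XY highest. CoIII had 67.02 and 58.7 in XYYcongo, 64.1 and 33.1 in XYYohio, and 71 and 65.3 in XY. Cyt-b had 119 and 86.8 in XYYcongo, 87.1 and 61.8 in XYYohio, and 114 and 77.8 in XY, with overlap throughout. The median log2 fold change of the gene entries was -0.36 in XYYohio over XY, beside 0.04 over all features, and no scaling tried turned its sign. It was -0.75 without XYYohio replicate 1 and -0.26 without XYYohio replicate 2.

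Among the tested members of testis, ATPase8 had the largest difference of XYYcongo from XY and from XYYohio. It had 93.2 and 28.1 in XYYcongo, 16.4 and 17.1 in XYYohio, and 15 and 27.8 in XY. XYYcongo replicate 1 stood far above the others, and replicate 2 was next to XY replicate 2. XYYcongo over XY was 1.29 ± 0.66 (limma adjusted p = 0.506) and XYYcongo over XYYohio 1.56 ± 0.66 (limma adjusted p = 0.995). ATPase8 reads per ATPase6 read were 1.87 and 1.18 in XYYcongo, 0.400 and 0.762 in XYYohio, and 0.349 and 0.812 in XY, so this ratio was highest in both XYYcongo libraries.

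In XYYcongo against XY the groups did not overlap and XYYcongo was lower for 2 of 11 gene entries (CoII and ND3), against 8.25% of all features, and higher for 1 (ATPase8), against 24.8%. The gene entries had a median of -0.08 and the tRNA entries of 0.28, beside 0.25 over all features. With TMM they were -0.35 and 0.03, beside -0.01 over all features, and with spike-in scaling the tRNA median was -0.09. In XYYcongo against XYYohio, XYYcongo was higher without overlap for 5 of 11 gene entries (CoI, CoII, ND1, ND4 and ATPase8) and 2 of 4 tRNA entries (Lys-CTT and Ser-GCT), against 13.8% of all features, and lower for 1 (ND2), against 7.77%. ND2 passed the filter only through its XYYohio values. The medians were 0.42 and 0.44 for the 2 classes and 0.23 over all features.

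No testis tRNA entry was called, and 0 of 4 were apart from XY without overlap in XYYcongo or in XYYohio. Lys-CTT had 114 and 118 in XYYcongo, 106 and 74.1 in XYYohio, and 84 and 137 in XY (XYYcongo over XY 0.12 ± 0.67, XYYohio over XY -0.27 ± 0.67). Ser-GCT had 74.4 and 115 in XYYcongo, 69.9 and 60.8 in XYYohio, and 48 and 81.9 in XY. Ile-GAT, which was called in ovary, lay between 10 and 12.3 in all 6 testis libraries, with XYYcongo over XY at 0.10 ± 0.69. Tyr-GTA had 13.9 and 4.26 in XYYcongo, 6.58 and 3.73 in XYYohio, and 5 and 6.05 in XY. The other 8 tRNA entries of testis had means under 5 and were not tested.

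The choice of scale decided how many members passed in the 2 comparisons that hold XXYcongo. Against XX, 4 members were called on the deposited scale, 10 after TMM scaling and 10 after median-of-ratios scaling, all 10 lower in XXYcongo, and 2 after spike-in scaling, both higher. After scaling to the non-spike total without 45S rDNA 10 were called, all lower. edgeR on the reads recovered from the table called 10 and DESeq2 11. These scalings moved the median over all features from the deposited 0.74 to 0.01 with TMM and to 1.60 with the spike-in total. The gene median was -0.53 as deposited, -0.75 with the non-spike total, -1.28 with TMM and -1.28 with the median of ratios. It was -1.36 with the non-spike total without 45S rDNA and 0.38 with the spike-in total. Each scaling multiplies a library by 1 factor and moves all entries nearly alike. The gap between a class and the median over all features therefore barely changes. The gene class lay below that median under each of the 6 scalings, which is 1 observation. Under the same scalings the snoRNA class, nuclear RNAs that guide rRNA modification, also lay below the median over all features, at -0.29 as deposited and -1.01 with TMM. A position below the median was therefore not particular to mitochondrial entries.

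**Figure D5:**
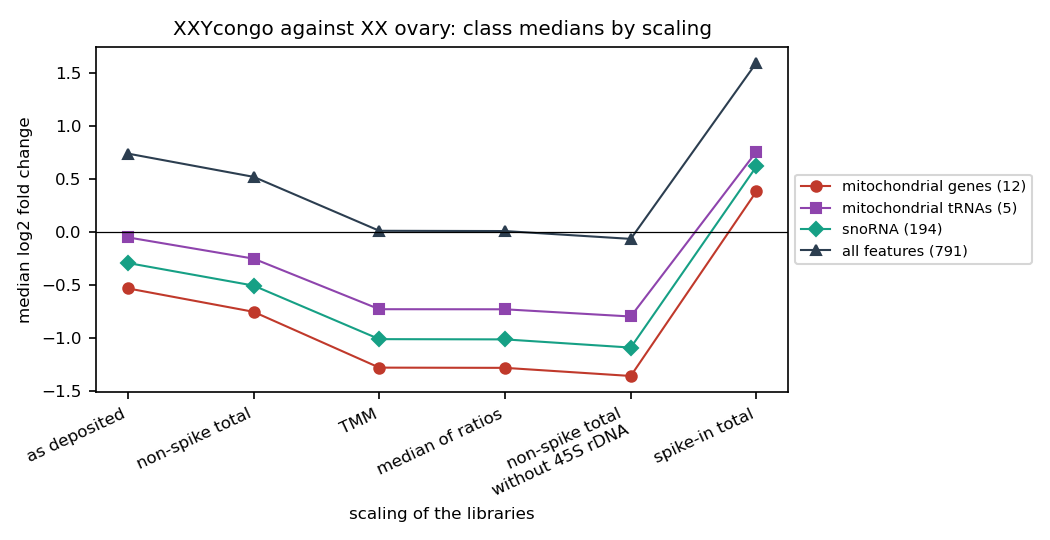
Median log2 fold change of XXYcongo over XX ovary (vertical axis) for the 12 mitochondrial gene entries, 5 mitochondrial tRNA entries, 194 snoRNA entries and all 791 features tested, under 6 scalings of the libraries (horizontal axis). The mitochondrial gene median is the lowest of the 4 lines under each scaling shown, from -0.53 as deposited to 0.38 with the spike-in total, where its sign turns. A scaling moves the 4 lines nearly alike, so their order is 1 observation.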

How the data were processed

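Small RNAs were sequenced from total RNA of ovaries and testes, and libraries had 15 PCR cycles and 50 read cycles, per the labels' protocols. Trim Galore and Bowtie 1.1.1 were used, per the submitters' processing notes. Not given in the sources used here are the genome build, where the scale factors come from and how reads matching more than 1 place were handled. The authors deposited 1 table per tissue: whole read counts for replicate 1 of XX and of XY, a normalized signal for the other 10 libraries, and a p-value of an analysis of variance per entry. The signal was reads times 1 factor per library: 100% of its values were whole reads within 0.01.

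Gene names, strand, order and length came from BDGP6.54, in which all 566 ovary and 524 testis FlyBase identifiers matched. limma 3.58.1 in R 4.3.3 (eBayes with trend) was run on log2(value + 1), which understates changes of low entries, for entries with a mean of at least 5, spike-ins left out, 3 genotypes per model. Tests were two-sided. Prior degrees of freedom were 9.59 in ovary and infinite in testis. edgeR 4.0.16 and DESeq2 1.42.0 ran on the recovered reads. Intervals are exact (Clopper-Pearson), and a count of 0 allows 3 reads. Alternatives covered pseudocount, filter, scaling, trend, replicate block, fitted groups, identical entries, tool and left-out libraries. Called members, the 4 most abundant of each class and their opposite strands were described in full. Members and lists were chosen with earlier results of these data known. The fit was also run on counts simulated with known scale factors. That simulation left out the uncertainty of scaling, so it does not bear on calls that change with the scale. The labels name no molecular identifiers.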

Additional observations from a re-analysis of the deposited data

Results flagged for a closer look

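For 5 of 42 comparisons of 14 members tested in both tissues, the groups did not overlap in either tissue and differed in opposite directions. Over all 591 features tested in both tissues, 6.03% of 1773 such comparisons did. The difference between the tissues was not tested, because the tables were normalized separately, and no single-tissue value below passed its own test. ND2 had a log2 fold change of -0.46 in XXYohio over XX ovary and of 0.76 in XYYohio over XY testis. In testis ND2 passed the filter only through its XYYohio values, with 9 and 13 reads in XYYohio and 3 and 12 in XY. The other 4 flagged comparisons set the Congo against the Ohio group in the same libraries, so they are not separate observations. ND1 was at -0.39 in ovary and 0.95 in testis, and tRNA Ser-GCT at -0.84 and 0.50. CoI was at -0.54 and 0.42, and CoII at -0.57 and 0.40.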

How the results depend on the processing

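In XXYcongo against XX the number of called members was 4. It was 10 with TMM, median-of-ratios or non-spike scaling without 45S rDNA, 10 with edgeR, 11 with DESeq2, 2 with spike-in scaling and 2 with a minimum mean of 20, and it ranged from 1 to 4 with a library left out. The lowest value came without XXYcongo replicate 2 or XX replicate 2. In XXYcongo against XXYohio it was 2, and it was 11 with TMM, median-of-ratios or non-spike scaling without 45S rDNA, 5 with non-spike scaling, 0 with spike-in scaling, 4 with identical entries collapsed, 12 with edgeR and 13 with DESeq2. It ranged from 1 (without XXYohio replicate 2) to 3 with a library left out. The cause was not tested. The difference between the mean log2 mtDNA shares of XXYcongo and XX, -0.74, was -1.35 without 45S rDNA and -0.91 to -0.56 with a library left out, an alternative added after the data were seen. In the other 4 comparisons 0 members were called under every setting run. Of the called members of XXYcongo against XX, ND3 was called in 19 of 21 settings, ATPase6 in 18 of 21, tRNA Ile-GAT in 13 of 20 and tRNA Lys-CTT in 9 of 21. With a library left out, the lone library of a group is assumed to vary like the others. The labels do not say what the replicate numbers share. Correlations of same-numbered deviations were 0.02 to 0.25 in ovary and 0.35 to 0.41 in testis. With the replicate block 4 members were called in XXYcongo against XXYohio, 4 in XXYcongo against XX and 0 in the other comparisons. Members below a mean of 5 rest on few reads and were described only.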
